A study of Mus musculus with 36 samples.

Results

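Mature medullary thymic epithelial cells, sorted as CD80-high and MHC class II-high (mTEChi), were compared with the CD80-low and MHC class II-low cells of the same compartment (mTEClo). The comparison used 12 of the 36 arrays of the series, 6 of mTEChi and 6 of mTEClo, chosen by the cell type in the labels. Each population was sorted from male wild-type C57BL/6J mice of 1, 3 or 6 months, with 2 arrays per population and age, and the 3 ages were weighted equally. The labels name no transgene and no treatment for either population. The other 24 arrays, of cortical epithelium (cTEC), of Sirpa-negative and Sirpa-positive dendritic cells and of fibroblasts, entered the estimate of the spread and served for reference levels. The labels name 1 mouse for each sample while the design text names 2 mice per age, so arrays of an age may share animals, and p-values then measure only the spread between these samples.

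The medulla of the thymus shows developing T cells the proteins of the rest of the body, so that self-reactive cells can be removed or diverted. Mature medullary epithelium does this with Aire, a nuclear protein that releases stalled transcription at many tissue-specific genes, and with Fezf2, a zinc-finger factor that acts on other tissue genes. The low fraction is mixed: it holds precursors of the mature cells, basal cells that make the chemokine Ccl21a, and cells that have passed the Aire stage. Receptors of the NF-kB pathway, mainly RANK, CD40 and the lymphotoxin beta receptor, drive maturation.

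Levels are log2 signals of the probe set with the highest mean for a gene, and a difference is mTEChi minus mTEClo on that scale with its standard error. A gene is called higher or lower where limma's moderated test gave an adjusted p under 0.05 and the difference was at least 2-fold. The median of an array lay between 5.61 and 5.75. The table holds no detection calls, so signals near or below that median cannot be told from background, and precision is limited by how few arrays there are.

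The 4 marker genes followed the labels. Aire ran from 6.48 through a median of 7.33 to 9.08 in mTEClo and from 10.67 through 11.09 to 11.97 in mTEChi, against a mean of 6.10 in cTEC. Every mTEChi array lay above every mTEClo array (3.59 ± 0.15, 12.1-fold, adjusted p = 9.68e-16). Fezf2 ran from 8.57 through 10.30 to 10.83 in mTEClo and from 11.03 through 11.20 to 12.57 in mTEChi (1.49 ± 0.21, adjusted p = 1.78e-06), again with no array in common.

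The markers of the low fraction went the other way. Krt14, a keratin of basal epithelium, ran from 11.58 through 11.75 to 12.29 in mTEClo and from 9.74 to 10.53 in mTEChi, again without overlap (-1.78 ± 0.19, adjusted p = 1.02e-08). Plscr2, a phospholipid scramblase gene, lay between 7.22 and 9.01 in mTEClo and between 3.70 and 4.18 in mTEChi, where all 6 arrays were below the array medians (-4.36 ± 0.16, 20.5-fold lower, adjusted p = 4.15e-17). Plscr2 was also high in cTEC, with a mean of 8.08. Epcam, the common epithelial surface protein, had medians of 11.77 in mTEClo and 11.63 in mTEChi and was not called (-0.24 ± 0.21). In sorted bulk samples, fewer cells of a type and less RNA per cell cannot be told apart, here and in every result that follows.

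**Figure D1:**
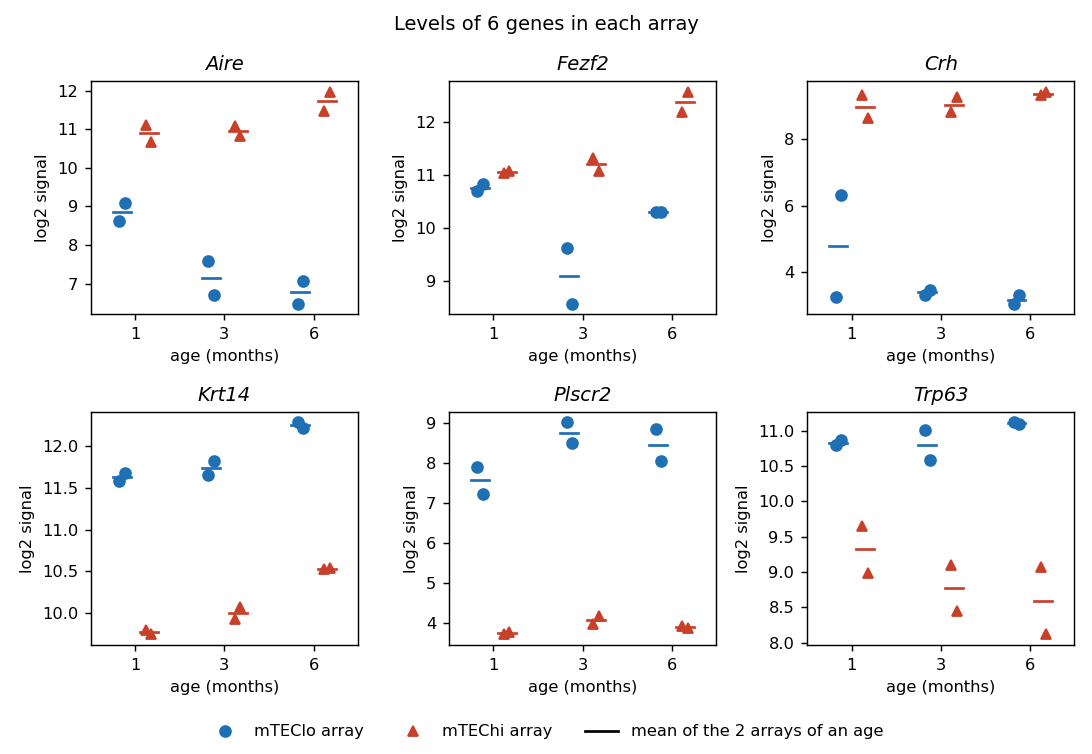
Log2 signal (vertical axis) of 6 genes in each of the 12 arrays, by population and age in months; each point is 1 array. Aire, Fezf2 and Crh were higher in every mTEChi array than in any mTEClo array, and Krt14, Plscr2 and Trp63 were lower in every mTEChi array.

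Of 14495 genes tested, 2845 differed (19.6%), 1713 higher in mTEChi (11.8%) and 1132 lower (7.81%). The arrays of the populations did not overlap for 1532 of the genes called higher (10.6% of all genes tested) and for 1026 of those called lower (7.08%). Large differences were mostly increases: 612 genes were at least 4-fold higher and 243 at least 4-fold lower, while 195 were at least 8-fold higher and 42 at least 8-fold lower. The median difference over all genes tested was -0.04, and 6722 of them lay above 0. Of the called genes, 2823 had the same sign at each age, which a call on the mean of the ages favours. Called at every age taken alone were 1118 of the genes called higher and 696 of those called lower.

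**Figure D2:**
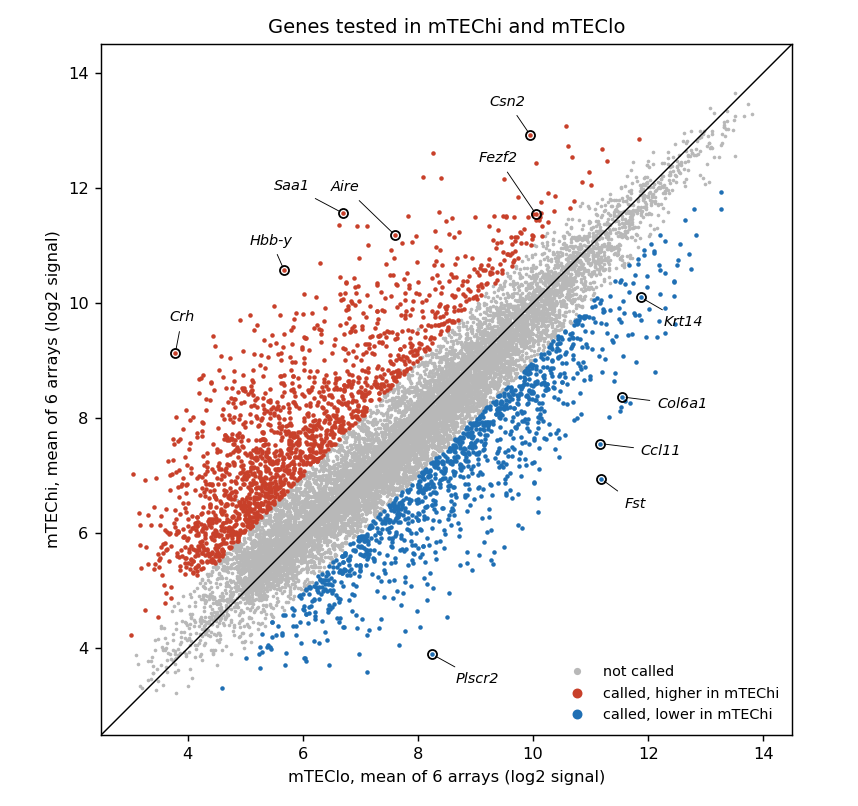
Mean log2 signal of the 6 mTEChi arrays (vertical axis) against that of the 6 mTEClo arrays (horizontal axis), 1 point per gene tested. The 1713 genes called higher and the 1132 called lower are in colour, and the line marks equal levels. The genes called higher reach further from the line than those called lower.

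Crh, the hypothalamic hormone that drives the stress axis, had the largest increase among genes without overlap. It ran from 3.06 through a median of 3.31 to 6.31 in mTEClo and from 8.65 through 9.28 to 9.43 in mTEChi (5.35 ± 0.28, 40.7-fold, adjusted p = 2.5e-14). In mTEClo, 5 of the 6 arrays lay well below the array median, and 1 array at 1 month lay at 6.31. Hbb-y, the embryonic beta-like globin, ran from 3.29 through 5.53 to 8.73 in mTEClo and from 9.75 through 10.48 to 11.68 in mTEChi (4.89 ± 0.18, 29.6-fold, adjusted p = 8.42e-17). Saa1, an acute-phase protein of liver, ran from 4.68 through 6.75 to 8.67 in mTEClo and from 11.15 through 11.53 to 11.85 in mTEChi (4.86 ± 0.24). For all of these genes the lowest mTEChi array lay above the highest mTEClo array.

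Other leading increases were Mucl2 (4.99 ± 0.15), Acaa1b, a peroxisomal thiolase of fat breakdown (4.79 ± 0.20), Idi2, an isomerase of isoprenoid synthesis in muscle (4.77 ± 0.24), and S100a8, a calcium-binding protein of neutrophils (4.73). They continued with Csn1s2a, a casein of milk (4.70), Calb1, a calcium buffer of neurons and kidney (4.50), Klk1b16, a glandular kallikrein (4.49 ± 0.13), Serpina7, the thyroxine carrier of plasma (4.48), and Cxcl3, a chemokine for neutrophils (4.48). Pdgfrb, the growth factor receptor of mesenchymal cells, rose by 4.45 ± 0.29 to a median of 9.92, below its mean of 12.43 in fibroblasts. Kallikrein genes are near-identical copies, so which member a probe set reads is uncertain.

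The decreases were led by Plscr2, described above, and Fst, the secreted antagonist of activin. Fst ran from 10.24 through 11.27 to 11.93 in mTEClo and from 5.44 through 6.92 to 8.15 in mTEChi (-4.24 ± 0.25, 18.9-fold lower, adjusted p = 3.37e-13), with a mean of 10.88 in cTEC. Slitrk4, a neuronal adhesion protein, lay between 8.16 and 8.76 in mTEClo and between 4.32 and 4.76 in mTEChi (-3.96 ± 0.12). Its mean in the other populations was no higher than 4.26, so among the 6 populations it stood above the array medians in mTEClo alone. Ccl11, the eosinophil chemokine eotaxin, ran from 10.58 through 11.31 to 11.57 in mTEClo and from 6.69 through 7.42 to 9.28 in mTEChi (-3.61 ± 0.35).

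Other large decreases were in Myl9, a myosin light chain (-3.83), Vwa1, a matrix protein (-3.73), and Ccn2, a matricellular growth factor (-3.59). They continued with Gpx8, a peroxidase of the endoplasmic reticulum (-3.74), Scn7a, a sodium channel (-3.72), Ch25h, the cholesterol 25-hydroxylase (-3.71), F3, the tissue factor that starts clotting (-3.65), and C1ra, a protease of complement (-3.57).

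Regulators of medullary maturation and the inputs of the NF-kB pathway rose in part. Of 23 such genes tested, 8 were higher (34.8%, against 11.8% of all genes) and 3 were lower (13.0%, against 7.81%), with a median of 0.67. Tnfrsf11b, the decoy receptor for the RANK ligand, ran from 6.42 through 7.36 to 8.55 in mTEClo and from 9.66 through 10.08 to 10.44 in mTEChi (2.65 ± 0.28, adjusted p = 1.13e-08). Cd40, which receives signals from T and B cells, ran from 8.60 through 9.37 to 10.18 in mTEClo and from 10.84 through 11.29 to 11.74 in mTEChi (1.86 ± 0.17). Sirt1, the deacetylase that acts on Aire, rose by 2.04 ± 0.18, with 11.20 as its lowest mTEChi array and 10.04 as its highest mTEClo array. Irf8 rose by 1.43.

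Foxn1, the master factor of thymic epithelium, was called at 1.24, but its difference was 0.94 and not called when its probe sets were averaged. Traf6, an adaptor of RANK and CD40, was called at 1.03, close to the threshold, and its call was lost under 6 alternatives, for example at 0.98 without mTEClo replicate 1 at 1 month. Genes of the same list that fell were Traf5 (-1.64), Ltbr, the lymphotoxin beta receptor (-1.17), and Ets1 (-1.61), which was at -0.90 and not called with probe sets averaged.

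The remaining 12 regulators were not called. Tnfrsf11a, which encodes RANK itself, differed by 0.54 (adjusted p = 0.00137), less than 2-fold. The NF-kB subunit genes Relb and Nfkb2 differed by 0.70 and 0.85, Spib by 0.87, Rela by -0.42 and the kinase gene Map3k14 by -0.17. Relb, Nfkb2 and Spib passed 2-fold in the mean of 3 and 6 months, at 1.08, 1.07 and 1.14, an alternative added after seeing the data. Of 21 tested genes for proteins that work with Aire, 1 was called higher, the topoisomerase gene Top2a (1.08, and 0.56 with probe sets averaged), and 1 lower, the Ku80 gene Xrcc5 (-1.62 ± 0.16). Each is 4.76% of the list, below the shares of all genes, and its median was -0.16.

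Tissue antigens were next described by organ. Because a gene could enter the test through its mTEChi arrays alone, the counts here are given without the filter on dim genes, over every list member with a probe set. Without that filter 9.97% of 18193 genes were higher and 6.25% lower. Of 10 milk proteins, 6 were higher and 0 lower (median 1.34). Of 22 liver and plasma proteins, 15 were higher and 1 lower (median 1.68). Of 25 proteins of pancreas and gut, 17 were higher and 0 lower (median 2.02), and of 15 secretions of salivary, lacrimal and odorant glands 9 were higher and 0 lower (median 1.28). All of these medians lay above that of the genes tested.

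Csn2, the milk protein beta-casein, already stood well above the array medians in the low fraction, with a median of 9.98 and 11.49 as the highest array, and ran from 12.36 through 12.91 to 13.45 in mTEChi (2.98 ± 0.41, adjusted p = 9.13e-07). Csn3, the kappa-casein gene, by contrast had a median of 4.80 in mTEClo and of 8.51 in mTEChi (3.58 ± 0.15). Muc1, a mucin of secretory epithelium, rose by 2.65 and Csn1s1 by 1.57, while Lpo, a peroxidase of milk and saliva, was not called (0.81).

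Among liver genes, Saa3 rose by 4.35, the apolipoprotein gene Apoa4 by 3.94 and the fibrinogen chain Fgg by 3.50. Fabp1, the fatty acid binder of liver and gut, ran from 5.10 through 6.87 to 8.06 in mTEClo and from 9.90 through 10.38 to 11.24 in mTEChi (3.80 ± 0.46). The exception was Crp, the C-reactive protein, which ran from 9.68 through 10.34 to 11.27 in mTEClo and from 7.38 through 8.92 to 9.35 in mTEChi (-1.71 ± 0.22, adjusted p = 2.82e-07). Crp was therefore a liver gene with a higher signal in the low fraction, without overlap of the arrays. It also stood above the array medians in mTEChi, and its mean in cTEC was 5.05.

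Gut genes included Tff3, a trefoil peptide of goblet cells, with a median of 6.58 in mTEClo and 10.62 in mTEChi (3.79 ± 0.21). Ang4, an antimicrobial protein of Paneth cells, rose by 4.39 ± 0.33, the bile acid binder Fabp6 by 4.30, Fabp2 by 3.68 and the pancreatic lithostathine Reg1 by 3.37 ± 0.26. Of the gland secretions, Car6, the carbonic anhydrase of saliva, ran from 4.26 to 4.98 in mTEClo and from 7.66 to 9.42 in mTEChi (3.60 ± 0.17). Mucl1 rose by 2.80 and the lipocalin Lcn11 by 2.58.

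Peptides of brain and endocrine cells were higher for 11 of 21 genes and lower for 0 without the filter (against 9.97% and 6.25% of all genes). Calcb, a neuropeptide of sensory neurons, ran from 5.41 through 8.74 to 10.32 in mTEClo and from 11.80 through 12.19 to 12.44 in mTEChi (3.76 ± 0.39). The neurotensin gene Nts rose by 4.21, Resp18 by 3.21 and the vasoactive peptide Vip by 3.07. Chga, a protein of secretory granules, differed by 1.01 but did not pass the test (adjusted p = 0.0781).

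Counts for the remaining organs follow, again without the filter, where 9.97% of all genes were higher and 6.25% lower. Of 19 genes listed for testis and germ cells 5 were higher and 0 lower. Fabp9, a lipid binder of sperm, was at 4.03 ± 0.20, Crisp3 at 3.67 and the egg coat protein Zp3 at 2.19. The median of that list without the filter was 0.20. Of 24 autoimmune targets of eye, skin, stomach, muscle and nerve 5 were higher and 0 lower, among them the gastric proton pump Atp4a (2.33). Of 20 striated muscle genes 6 were higher and 2 lower. The embryonic myosin Myh3 rose by 3.79 and the slow troponin Tnni1 by 2.99, while Mybpc2, a protein of fast muscle, fell by 1.77 and Acta1 by 1.11. Of 10 globin and erythroid genes 5 were higher, including the embryonic Hbb-bh1 (1.73) and Alas2, the first enzyme of heme synthesis in red cells (2.16). Casein and globin genes lie in families of similar sequence, so the member read is uncertain.

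**Figure D3:**
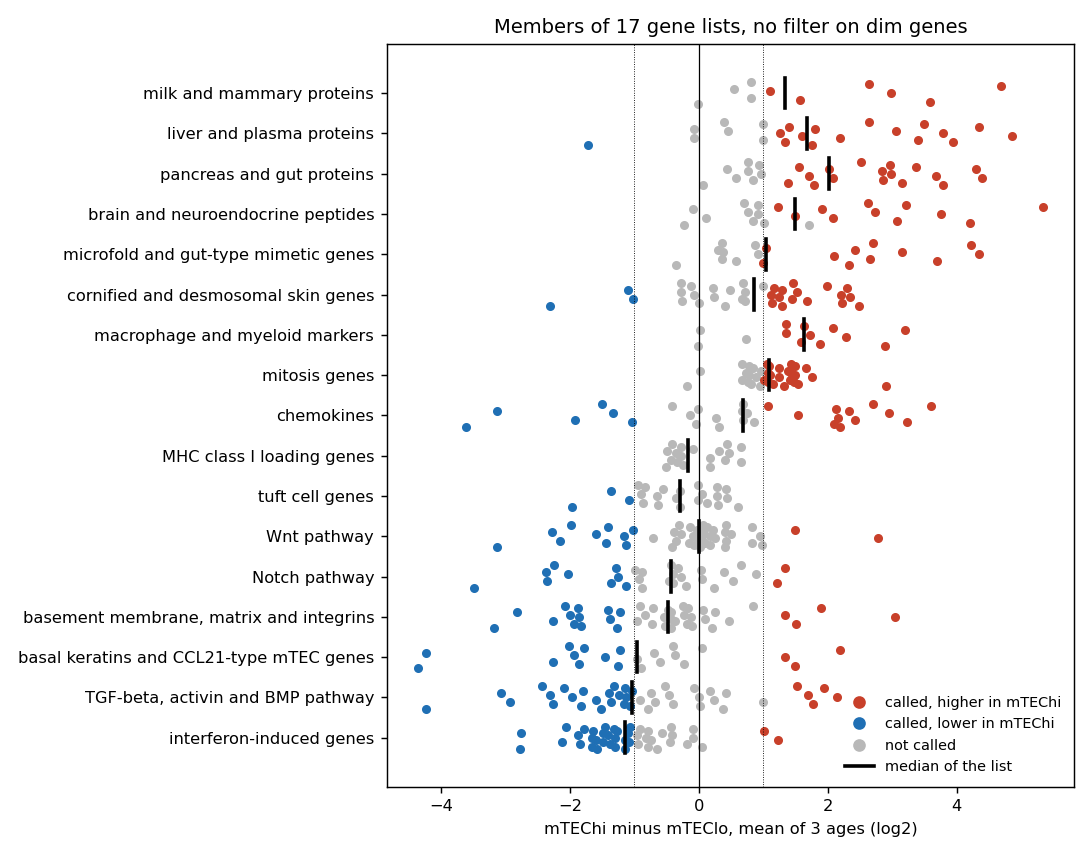
Difference between mTEChi and mTEClo (log2, horizontal axis) for each member with a probe set in 17 gene lists (rows), without the filter on dim genes, 1 point per gene, with the list median as a bar. Pancreas and gut genes have a median of 2.02, mitosis genes 1.08, interferon-induced genes -1.14 and TGF-beta pathway genes -1.04.

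Genes of basal epithelium fell and genes of differentiated epithelium rose in part. Of 21 basal and CCL21-type genes 10 were lower (47.6%, against 7.81% of all genes). Another 3 were higher (14.3%, near the 11.8% of all genes), and the median was -0.97. This list holds 2 of the 4 markers, Krt14 and Plscr2, and Fst, so it does not stand apart from them. Trp63, the transcription factor that maintains basal epithelium, ran from 10.58 through 10.94 to 11.11 in mTEClo and from 8.11 through 9.03 to 9.65 in mTEChi (-2.01 ± 0.21). The laminin chains Lama3 and Lamb3, which anchor basal cells, fell by 2.27 and 1.93. Members that rose were Igfbp6 (2.20), Bst1 (1.49) and Col17a1, a hemidesmosome collagen (1.33).

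Of 34 cornified and desmosomal skin genes with a probe set, 16 were higher and 3 lower without the filter (against 9.97% and 6.25% of all genes). Among the 31 tested, 1 was lower without mTEChi replicate 2 at 6 months. The keratins Krt4 and Krt16 rose by 2.34 and 2.22, the protease inhibitor Spink5 by 2.20, and the protease Klk6 by 2.31. Grhl3, a factor of barrier formation, ran from 3.97 to 4.76 in mTEClo and from 5.85 to 7.44 in mTEChi (2.48 ± 0.13). Dsc3, the desmocollin of basal layers, fell from a median of 11.01 to 8.63 (-2.30 ± 0.16).

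Genes of other cell identities that medullary epithelium can adopt were read next. Of 19 microfold and gut-type genes with a probe set 11 were higher and 0 lower without the filter (against 9.97% and 6.25% of all genes). Lypd8, an antibacterial protein of gut epithelium, ran from 5.49 through 7.15 to 8.27 in mTEClo and from 11.20 through 11.25 to 11.73 in mTEChi (4.23 ± 0.31, adjusted p = 1.78e-11). Cdx1, a regulator of intestinal identity, had a median of 6.65 in mTEClo and of 9.91 in mTEChi (3.15 ± 0.22), and the cadherin Cdh17 rose by 3.70.

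Of 17 regulators of neuroendocrine, ciliated and secretory cells 5 were higher and 0 lower without the filter (against 9.97% and 6.25% of all genes). Among those that rose were Insm1 (2.53 ± 0.32), Foxa1 (2.00) and Ptf1a, the factor of acinar pancreas (1.41). Tuft cell genes did not rise: of 23, 0 were higher and 3 lower without the filter (against 9.97% and 6.25% of all genes), with a median of -0.30. At an unadjusted p under 0.05 in limma, 1 of the 21 tested was higher and 11 were lower. Of all 14495 genes tested, 8666 passed that threshold in either direction. Dclk1, a kinase that marks tuft cells, ran from 9.57 through 9.90 to 10.12 in mTEClo and from 7.59 through 7.89 to 8.34 in mTEChi (-1.97 ± 0.29), and its mean in fibroblasts was 9.09. Lrmp fell by 1.36. Trpm5, the taste channel, was called at -1.09 and lost the call under 6 alternatives, for example at -0.81 without mTEChi replicate 1 at 6 months. Without mTEClo replicate 2 at 3 months 7 tuft genes were lower.

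Of 21 claudin and adhesion genes tested, 8 were higher (38.1%, against 11.8% of all genes) and 2 lower (9.52%, near the 7.81% of all genes). Claudins close the space between epithelial cells. Cldn7 rose by 2.66, Cldn4 by 2.25, Cldn23 by 2.14 and the tricellular junction gene Marveld2 by 2.01. Cdh1, the epithelial cadherin, was not called (-0.81). Cldn1 was called at -2.15, but its 4 probe sets disagreed in sign, from -2.15 to 0.46, so its direction is uncertain.

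Of 29 chemokines tested, 12 were higher (41.4%, against 11.8% of all genes) and 6 lower (20.7%, against 7.81%). Ccl22, which draws cells bearing CCR4, ran from 5.87 through 6.96 to 7.42 in mTEClo and from 9.86 through 10.27 to 10.95 in mTEChi (3.60 ± 0.25, adjusted p = 4.32e-12). Ccl25, which draws thymic progenitors, had a median of 9.45 in mTEClo and 11.48 in mTEChi (2.20 ± 0.19). Cxcl12, the ligand of CXCR4, went the other way, from 9.59 through 10.57 to 10.93 in mTEClo and from 7.03 through 7.21 to 7.81 in mTEChi (-3.14 ± 0.24), with a mean of 12.52 in cTEC. Cxcl2 and Ccl5 rose by 3.23 and 2.95, and Cxcl14 fell by 1.92. The dendritic cells, with means of 11.56 and 12.17 in the Sirpa-negative and Sirpa-positive populations, had the higher Ccl22 signal.

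Of 31 cytokines and growth factors of the niche tested, 10 were higher (32.3%, against 11.8% of all genes) and 1 was lower (3.23%, below the 7.81% of all genes). The gene that fell was Il7, the survival cytokine of immature thymocytes, which ran from 10.73 through 10.82 to 11.64 in mTEClo and from 7.67 through 8.87 to 9.24 in mTEChi (-2.26 ± 0.21, adjusted p = 1.67e-09). Its cTEC mean of 10.96 was inside the mTEClo range. Igf1 ran from 6.62 through 7.34 to 8.75 in mTEClo and from 10.05 through 10.24 to 10.76 in mTEChi (2.71 ± 0.33). Il1rn, the antagonist of the interleukin-1 receptor, rose by 2.45, Tslp, a cytokine that conditions dendritic cells, by 2.39 ± 0.26, the EGF-like ligand Epgn by 2.05, and Csf2 by 1.84.

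Of 18 costimulatory and coinhibitory ligands tested, 5 were higher (27.8%, against 11.8% of all genes) and 2 lower (11.1%, against 7.81%). Cd70, the ligand of CD27, ran from 4.50 through 5.55 to 7.62 in mTEClo and from 9.05 through 9.62 to 9.94 in mTEChi (3.75 ± 0.21). Cd86 had medians of 4.98 and 8.43 (3.31 ± 0.14), while its means in the dendritic cells were 11.52 and 10.57. Cd83 rose by 2.93 and Tnfsf9 by 2.57. Lgals9, a galectin, fell from a median of 9.70 to 7.37 (-2.38 ± 0.12) and Tnfsf10, the ligand TRAIL, by 1.59. Cd274, which encodes PD-L1, was not called (-0.01).

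Genes of antigen processing differed by branch. Of 18 genes that load MHC class I, 0 were called in either direction, with B2m at -0.28 and H2-K1 at -0.42. At 6 months alone 2 of the 18 were called higher, where 13.9% of all genes tested were. Over the 3 ages, at an unadjusted p under 0.05 in limma with no threshold on the fold, 6 were higher and 8 lower. By that measure 8666 of all 14495 genes tested passed in either direction. Of 21 lysosomal proteases and related genes 6 were higher (28.6%, against 11.8% of all genes) and 1 lower (4.76%, against 7.81%). Ctsh ran from 8.68 through 9.54 to 10.73 in mTEClo and from 11.93 through 12.21 to 12.34 in mTEChi (2.66 ± 0.28), and Ctsk, Ctse and Ctsz rose by 1.84, 1.80 and 1.66. Ctsl, the protease that trims class II peptides in cortical epithelium, fell from a median of 13.24 to 11.67 (-1.63 ± 0.31). Ctss, its counterpart in dendritic cells, was not called (0.71).

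Cd80 and MHC class II were used to sort the cells, so their values are a description. Cd80 differed by 2.80, and the accessory class II genes H2-Eb2, H2-Ob and H2-Oa by 2.68, 1.89 and 1.83. The main class II genes H2-Aa (0.14), H2-Ab1 (-0.03) and H2-Eb1 (0.03) hardly differed in signal, and Ciita, their transactivator, differed by 0.72.

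Signalling through TGF-beta, activin and BMP had the largest share of decreases among the 5 lists of signalling and matrix genes. These ligands of one superfamily signal through Smad proteins, and the Id genes are among their direct targets in epithelium. Of 40 genes tested 21 were lower (52.5%, against 7.81% of all genes) and 5 higher (12.5%, near the 11.8% of all genes). The list had a median of -1.05. With probe sets averaged, 13 were lower and 3 higher. The mean level of the list lay between 8.24 and 8.51 in the mTEClo arrays and between 7.38 and 7.79 in the mTEChi arrays.

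Id1 ran from 8.50 through 10.11 to 10.35 in mTEClo and from 5.71 through 6.54 to 7.56 in mTEChi (-3.06 ± 0.18, adjusted p = 2.81e-13), and Id3 fell by 2.93. The ligand Tgfb3 ran from 8.75 through 9.23 to 10.04 in mTEClo and from 6.40 through 6.94 to 7.26 in mTEChi (-2.43 ± 0.20). The receptor Tgfbr2 was called at -2.30 but was at -0.82 and not called with probe sets averaged. Other ligands rose: Bmp2 by 2.14 and Tgfb2 by 1.70, and the BMP antagonist Grem1 by 1.94. The ligand genes thus did not share a direction.

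Of 28 Notch pathway genes tested, 9 were lower (32.1%, against 7.81% of all genes) and 2 higher (7.14%, below the 11.8% of all genes). Notch receptors on a cell are switched on by Delta and Jagged ligands of its neighbours, and the Hes and Hey repressors are direct targets. Hey2 ran from 6.22 through 8.04 to 8.35 in mTEClo and from 4.07 through 4.31 to 4.58 in mTEChi (-3.48 ± 0.22). The other targets Hey1 and Hes1 fell by 2.36 and 2.35, and the ligands Dll1 and Jag2 by 2.24 and 2.03. Mfng, a glycosyltransferase that tunes the receptors, rose by 1.33. The receptor gene Notch2 fell just short of 2-fold and was not called.

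In the Wnt pathway 10 of 37 genes tested were lower (27.0%, against 7.81% of all genes) and 2 higher (5.41%, below the 11.8% of all genes). With probe sets averaged 6 were lower. The receptor Fzd2 ran from 9.52 through 9.92 to 10.82 in mTEClo and from 6.35 through 6.91 to 7.32 in mTEChi (-3.13 ± 0.20), and the ligand Wnt5a fell by 2.28. The 2 genes called higher were the secreted inhibitors Dkk2, with medians of 3.87 and 6.76 (2.78 ± 0.28), and Dkk1 (1.49), and Dkk3 of the same family fell by 1.99.

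Of 31 receptors for growth factors and cytokines tested, 9 were lower (29.0%, against 7.81% of all genes) and 3 higher (9.68%, near the 11.8% of all genes). Fgfr2, the receptor for the fibroblast growth factors that sustain thymic epithelium, ran from 10.44 through 10.66 to 11.06 in mTEClo and from 7.67 through 7.94 to 8.24 in mTEChi (-2.74 ± 0.15). Lifr had medians of 12.51 and 9.77 (-2.82 ± 0.37), and its relative Osmr fell by 2.48. Il7r rose by 1.93. Erbb3 and Kit were called at 1.48 and 1.45 but not with probe sets averaged, at 0.64 and 0.87.

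Of 39 matrix, basement membrane and integrin genes tested, 13 were lower (33.3%, against 7.81% of all genes) and 4 higher (10.3%, near the 11.8% of all genes). The collagen chains Col6a1 and Col6a2 fell by 3.19 and 2.82, the matricellular protein Sparc by 2.07 and the laminin chain Lamb1 by 1.99. Col6a3, a chain of the same collagen, rose by 1.90. Nid1, which links laminin to collagen, ran from 4.51 through 5.83 to 6.84 in mTEClo and from 8.39 through 8.88 to 9.24 in mTEChi (3.04 ± 0.24). Members of the same assembly therefore differed in opposite directions.

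Of 44 interferon-induced genes tested, 26 fell in mTEChi (59.1%, against 7.81% of all genes) and 2 rose (4.55%, against 11.8%). The list had a median of -1.14. Interferons switch these antiviral genes on, in many cases through a repeated GAAA element in their promoters. The mean level of the list lay between 9.83 and 10.28 in the mTEClo arrays and between 8.64 and 9.11 in the mTEChi arrays, without overlap. At 1, 3 and 6 months 26, 28 and 22 of the genes were lower, where 7.31%, 8.15% and 10.2% of all genes tested were lower.

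Ifit3, an antiviral RNA-binding protein, ran from 10.39 through 10.83 to 11.29 in mTEClo and from 7.74 through 8.12 to 8.36 in mTEChi (-2.77 ± 0.15, adjusted p = 4.39e-14). Irf7, which amplifies the interferon response, lay between 9.62 and 9.94 in mTEClo and between 7.46 and 7.93 in mTEChi (-2.13 ± 0.13). Rtp4 fell by 2.75, the GTPase gene Gbp3 by 2.06 and the RNA sensor Ddx58 by 1.88. Of the 2 that rose, Oasl1 was at 1.23, while Isg20 at 1.01 lost its call under 7 alternatives, with 0.71 without mTEChi replicate 2 at 6 months.

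The promoter stretches of 4 genes called lower are shown to make the element visible, chosen among the larger decreases of the list with a match upstream of the start. They come from RefSeq on mouse build GRCm38.p6. They are written 5′ to 3′ on the strand of the gene, with capitals for the element, GAAA, any 2 bases and GAAA again, or its reverse complement. In Gbp3 and Irgm1 the capitals are 2 overlapping matches. Ifit3 is at chr19:34583382-34583441 (plus strand), Gbp3 at chr3:142559980-142560039 (plus), Irgm1 at chr11:48871421-48871469 (minus) and Stat2 at chr10:128270251-128270310 (plus).
Ifit3: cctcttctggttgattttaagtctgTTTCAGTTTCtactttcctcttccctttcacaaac
Gbp3: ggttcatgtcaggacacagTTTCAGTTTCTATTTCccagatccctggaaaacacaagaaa
Irgm1: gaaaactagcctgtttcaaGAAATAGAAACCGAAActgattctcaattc
Stat2: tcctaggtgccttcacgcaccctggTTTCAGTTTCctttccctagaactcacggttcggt

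A promoter window spans 250 bases before to 50 after the start. Of the 33 genes of the list with a window, 16 held that element on either strand (48.5%), against 3.71% of 11627 tested genes with a window. The motif stood in 10 of 19 genes called lower and in 6 of 12 not called. A match is a description of letters, not of binding.

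Immediate early genes, which respond to tissue dissociation within minutes, were lower for 9 of 26 tested (34.6%, against 7.81% of all genes) and higher for 1 (3.85%, against 11.8%), with a median of -0.89. The mean level of the list overlapped between the populations, 10.60 to 11.47 in mTEClo and 10.11 to 10.96 in mTEChi. Atf3 fell by 2.12 and Socs3, an inhibitor of cytokine receptors, by 1.83. Egr2 fell from a median of 10.57 to 8.26 (adjusted p = 1.85e-05), with overlapping arrays, and Gadd45b rose by 1.45. Fos was not called (-0.95). With the 3′ minus 5′ signal as a covariate 5 of the genes were lower, and 6 without mTEClo replicate 1 at 3 months, against 14 without mTEChi replicate 1 at 6 months.

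Genes of mitosis were higher in mTEChi for 21 of 34 tested (61.8%, against 11.8% of all genes) and lower for 0, with a median of 1.08. With probe sets averaged 8 were higher. At an unadjusted p under 0.05 in limma 32 were higher and 0 lower, where 8666 of all 14495 genes tested passed in either direction. Mitosis genes run chromosome condensation, the spindle and its checkpoint. Of the 21 called higher, 6 had no overlap between the arrays of the populations, against 1532 of the 1713 over all genes. Cdc25c, the phosphatase that opens mitosis, ran from 4.01 through 5.45 to 6.66 in mTEClo and from 7.86 through 8.11 to 9.34 in mTEChi (2.90 ± 0.21, adjusted p = 1.9e-11). Cdk1, the kinase of mitotic entry, ran from 6.94 through 8.17 to 9.13 in mTEClo and from 9.13 through 9.55 to 10.10 in mTEChi (1.54 ± 0.16). Its highest mTEClo array and its lowest mTEChi array nearly met.

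Bub1, a kinase of the spindle checkpoint, was called at 1.76 ± 0.19 but was at 0.99 with probe sets averaged, and Ttk at 1.66 and Tpx2 at 1.49 were at 0.88 and 0.55. Bub3, another checkpoint gene, was not called (0.02). Of 35 genes of DNA replication and E2F targets tested, 3 were higher (8.57%) and 1 lower (2.86%), both shares below those of all genes, 11.8% and 7.81%, with a median of -0.01. Rrm2, a subunit of ribonucleotide reductase, rose by 1.23, while Tk1, thymidine kinase, fell by 1.31. Pcna, the sliding clamp, was at 0.04 and Mcm7, a helicase subunit, at -0.17. Of 24 tested D-type cyclins, CDK inhibitors, RB family and related genes, 4 were higher (16.7%, against 11.8% of all genes) and the other 20 were not called, with a median of 0.0070. The 4 were the CDK inhibitors Cdkn2b (2.07), Cdkn1c (1.39) and Cdkn1a (1.33) and the cyclin Ccnd2 (1.06, not called without 1 of 3 arrays in turn), while the inhibitors Cdkn1b (0.21), Cdkn2c (0.41) and Cdkn2d (-0.52) were not called.

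The promoters of 4 mitosis genes called higher, chosen among the larger differences with a match upstream of the start, show the element TTTGAA, known as the cell cycle genes homology region, in capitals on either strand. The source, build and strand convention are those of the interferon genes. Cdk1 is at chr10:69352913-69352952 (minus strand), Kif2c at chr4:117178845-117178900 (minus), Ube2c at chr2:164769875-164769928 (plus) and Cdc20 at chr4:118437344-118437386 (minus).
Cdk1: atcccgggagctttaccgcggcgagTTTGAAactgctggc
Kif2c: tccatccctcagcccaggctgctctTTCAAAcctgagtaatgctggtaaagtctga
Ube2c: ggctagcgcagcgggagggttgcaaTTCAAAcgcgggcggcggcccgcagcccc
Cdc20: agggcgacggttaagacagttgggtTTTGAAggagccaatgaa

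Of 28 mitosis genes with a window 21 held TTTGAA on either strand (75.0%), against 14.7% of tested genes with a window. For CCAAT it was 24 (85.7%), against 42.0%. TTTGAA stood in 14 of 17 mitosis genes called higher and in 7 of 11 not called. The microtubule motor Kif2c and the ubiquitin-conjugating enzyme Ube2c were called higher at 1.49 ± 0.16 and 1.42 ± 0.20 and are shown for the motif.

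The difference in mitosis genes was not equal at the ages. Of the 34 genes 1 was higher at 1 month, 20 at 3 months and 32 at 6 months, where 10.3%, 12.4% and 13.9% of all genes tested were higher. The median differences of the list were 0.13, 1.22 and 1.91. For 20 of them the F-test on age passed, each with a larger difference at 6 months than at 1 month. The mean level of the list was 7.94 and 8.17 in the mTEClo arrays at 1 month, 7.58 and 6.89 at 3 months, and 6.40 and 6.42 at 6 months. In mTEChi it was 8.26 and 8.20, then 8.62 and 8.25, then 8.61 and 8.16. The mTEClo arrays at 6 months thus lay below those at 1 month, while the mTEChi arrays of the 3 ages overlapped.

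The count of age-dependent mitosis genes was 9 when only the 12 medullary arrays were fitted, 15 with the 3′ minus 5′ signal as a covariate and 12 without mTEClo replicate 2 at 1 month or replicate 1 at 6 months. Replication genes went from a median difference of -0.51 at 1 month to 0.45 at 6 months, with 7 of 35 age-dependent, a count that was 0 with the 12 arrays alone, 3 without mTEClo replicate 1 at 1 month and 14 without mTEClo replicate 2 at 3 months. Markers of thymocytes, the dividing cells that surround the epithelium, had list means of 5.69 and 6.83 in mTEClo at 1 month and of 5.29 to 5.60 at 3 and 6 months, against 5.79 to 6.31 in mTEChi. With the thymocyte markers' mean as a covariate the count of age-dependent mitosis genes was 20. Beside a mean for each group, that covariate follows only differences between arrays of the same group. The part of thymocyte RNA in the change with age was not tested.

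**Figure D4:**
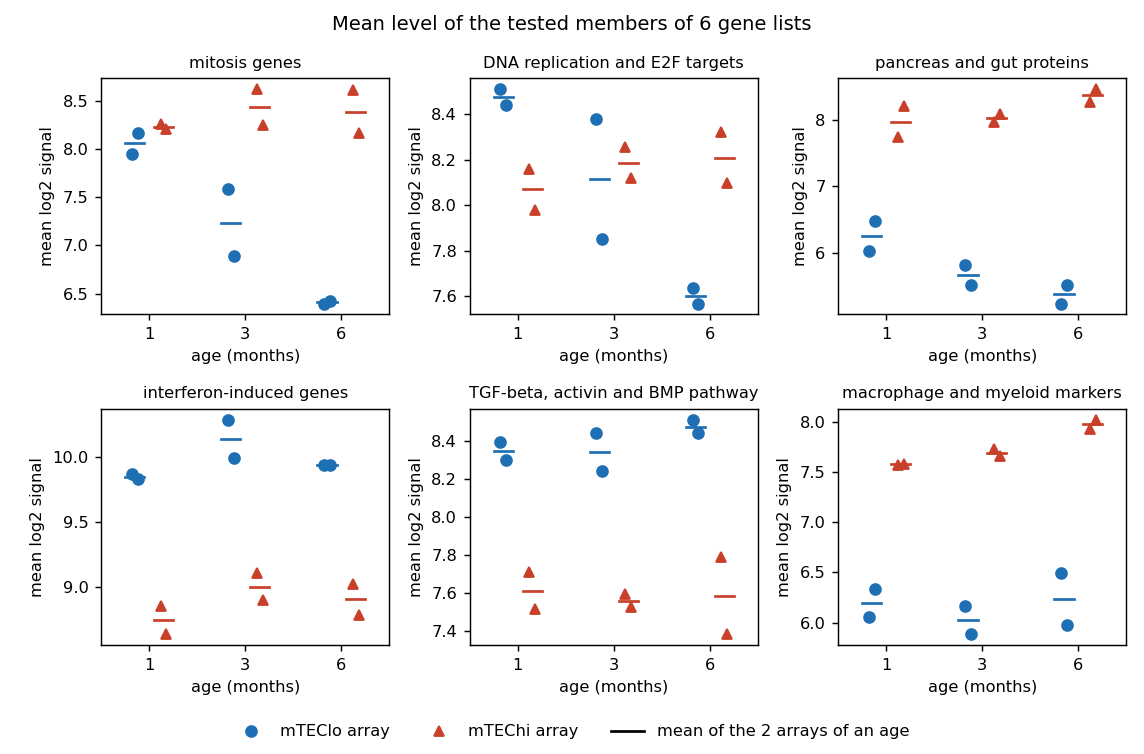
Mean log2 signal (vertical axis) of 6 gene lists in each of the 12 arrays, by population and age in months; each point is 1 array. The mitosis list runs from 8.17 at 1 month to 6.40 at 6 months in mTEClo and stays between 8.16 and 8.62 in mTEChi, while the interferon-induced list is between 9.83 and 10.28 in mTEClo and between 8.64 and 9.11 in mTEChi at every age.

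Across all genes, the difference between the fractions depended on age for 514 (3.55%, F-test). From 1 to 3 months the signed difference went up for 12 genes (0.0828%) and down for 3 (0.0207%), and from 1 to 6 months it went up for 721 (4.97%) and down for 230 (1.59%). A gene that was lower in mTEChi at 1 month and less so later also counts as going up. They rest on 2 arrays per population and age and on a spread taken from all groups. The median change over all genes from 1 to 6 months was 0.10. Single arrays moved these counts. Without mTEClo replicate 1 at 6 months 160 genes passed the F-test and 311 changed from 1 to 6 months, and without mTEChi replicate 1 at 6 months 1704 and 2259 did. From 1 to 3 months, 81 genes changed without mTEClo replicate 1 at 3 months and 3 without replicate 2 of that group. The 3′ minus 5′ signal of the control probe sets was 2.73 and 2.62 in the mTEClo arrays at 1 month and 3.07 in mTEClo replicate 1 at 3 months, against 1.73 to 2.11 in the other 9 arrays, and its part was not tested beyond the covariate.

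The difference in Aire grew with age. It was 2.03 at 1 month, 3.80 at 3 months and 4.95 at 6 months, a change of 2.92 (adjusted p = 9.69e-05). Fezf2 differed by 0.29, 2.10 and 2.08, and its F-test did not pass (adjusted p = 0.0574). Cd40 differed by 0.81, 2.12 and 2.66 and passed (adjusted p = 0.0239), whereas Krt14 was at -1.86, -1.74 and -1.73.

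Differences in several antigens also grew from 1 to 6 months. Hbb-y was 7.68 and 8.73 in mTEClo at 1 month, 5.47 and 5.60 at 3 months and 3.31 and 3.29 at 6 months, while the mTEChi arrays lay between 9.75 and 11.68 (change 5.76 ± 0.45, adjusted p = 3.43e-08). Tff3 was 8.55 and 8.20, then 6.64 and 6.51, then 5.82 and 6.17 in mTEClo, against 10.35 to 11.63 in mTEChi (change 3.19, adjusted p = 0.000952). For both genes the mTEClo arrays were highest at 1 month, while in mTEChi the highest array was at 6 months. Calcb (change 3.94) and Ang4 (3.91) passed as well, but each lost the call without mTEClo replicate 1 at 6 months, and Calcb also without replicate 2 of either population at 1 month.

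Cdc20, an activator of the anaphase-promoting complex, was 10.56 and 10.79 in mTEClo at 1 month and 7.86 and 7.91 at 6 months, against 9.98 to 11.80 in mTEChi (change 3.29 ± 0.61, adjusted p = 0.0023). At 1 month its difference was -0.19. The secreted neuronal protein Tafa2 changed early: in mTEClo it was 7.72 and 7.78 at 1 month and 4.77 and 4.65 at 3 months (change 2.41 ± 0.32 from 1 to 3 months, adjusted p = 0.000766).

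Prg4, the lubricating proteoglycan of joints, went the other way at 3 months. It was 5.66 and 6.56 in mTEClo at 1 month, 9.33 and 10.52 at 3 months and 5.64 and 5.96 at 6 months, while the mTEChi arrays lay between 9.35 and 10.40 (change -3.39 ± 0.46 from 1 to 3 months, adjusted p = 0.000766). The low fraction at 3 months thus came close to mTEChi for this gene. Mcoln3, a lysosomal channel, was 4.61 and 4.52 in mTEClo at 1 month and 6.34 and 6.80 at 3 months (change -2.51), but lost its call when any of 6 arrays was left out in turn. With the 12 medullary arrays alone, limma called 0 changes from 1 to 3 months. There 821 of 14495 genes were at an unadjusted p under 0.05, where chance alone gives a share of about 0.05.

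For some genes the sign of the difference turned at 6 months. Cryl1, a sugar dehydrogenase, was 11.91 and 12.67 in mTEChi at 1 month and 8.84 and 7.48 at 6 months, and in mTEClo 10.39 and 9.81 at 1 month and 11.48 and 11.68 at 6 months (change -5.61, adjusted p = 0.00765). Sema3f, a guidance cue, was 12.21 and 12.33 in mTEChi at 1 month and 9.52 and 9.45 at 6 months (change -3.83). Both genes were also low in mTEClo replicate 1 at 3 months, at 8.97 and 9.43, while the other array of that group was higher for both. That array is the one with the 3′ minus 5′ signal of 3.07.

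**Figure D5:**
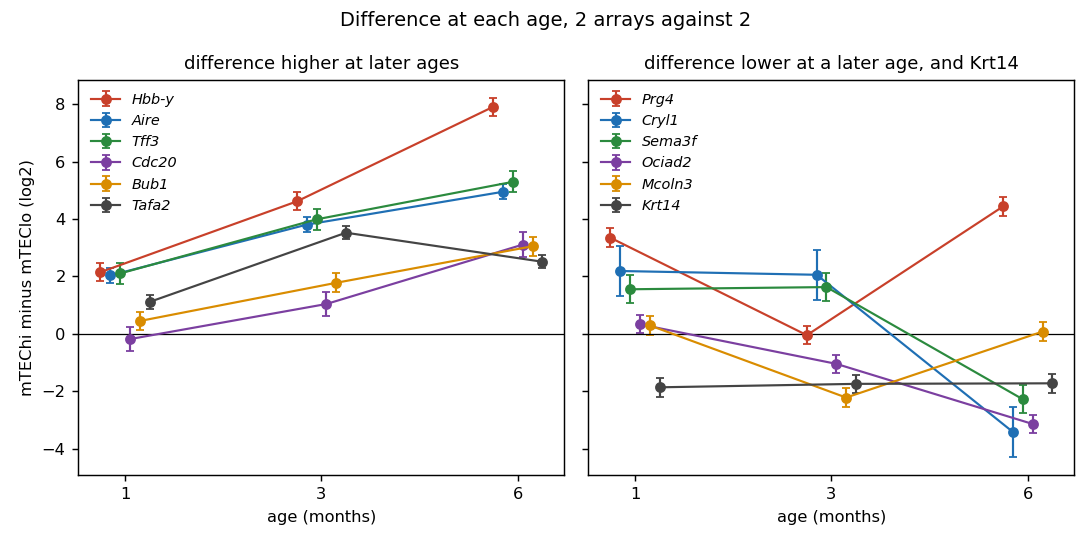
Difference between mTEChi and mTEClo (log2, vertical axis, ± SE) at 1, 3 and 6 months (horizontal axis, ages spaced equally) for 12 genes. In the left panel Aire grows from 2.03 to 4.95 and Cdc20 from -0.19 to 3.11; in the right panel Krt14 stays between -1.86 and -1.73.

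Markers of other cell types were then read in the same arrays. Of 13 macrophage and myeloid markers 10 were higher in mTEChi (76.9%, against 11.8% of all genes) and 0 lower, with a median of 1.64. Csf1r, the receptor that macrophages need, ran from 5.82 through 6.63 to 7.82 in mTEClo and from 9.28 through 9.50 to 10.63 in mTEChi (2.90 ± 0.27), and Lyz2, lysozyme, had medians of 8.54 and 11.46 (3.21 ± 0.29). Adgre1, a surface antigen of mouse macrophages, had medians of 6.03 and 8.23 and a mean of 10.50 in the Sirpa-positive dendritic cells. The mean level of the list was 5.88 to 6.50 in mTEClo, 7.57 to 8.02 in mTEChi and 10.90 in the Sirpa-positive dendritic cells.

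Not every defining marker moved. Fcgr1 and Mertk, receptors of macrophages for antibody and dying cells, had medians of 5.48 and 5.37 in mTEChi, at or below the array medians, and differed by 0.02 and -0.02. Ptprc, the common leukocyte antigen, had medians of 8.15 and 8.36 and was not called (0.74). The part of myeloid RNA in the chemokine, cytokine, costimulatory and protease results was not tested.

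Of 8 B cell markers 4 were higher, where 11.8% of all genes were, and 0 lower, with Ms4a1, which encodes CD20, at medians of 4.63 and 6.81 (2.16 ± 0.46). The mean level of that list was 5.35 to 5.69 in mTEClo and 6.26 to 6.53 in mTEChi. Of 12 dendritic cell markers 3 were higher, again beside 11.8% of all genes, with list means of 5.78 to 6.12 in mTEClo and 6.38 to 6.96 in mTEChi, against 9.50 in the Sirpa-positive dendritic cells. Of 14 thymocyte markers 2 were higher (14.3%, near the 11.8% of all genes), Thy1 (2.14) and Cd3g (1.16, and 0.78 and not called with the thymocyte mean as a covariate). Of 12 endothelial and mural markers tested 1 was higher, Plvap (1.48), and 1 lower, 8.33% each and near the shares of all genes.

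Of 13 fibroblast markers 5 were higher (38.5%, against 11.8% of all genes) and 2 lower (15.4%, against 7.81%). They had list means of 6.13 to 6.62 in mTEClo, 6.81 to 6.93 in mTEChi and 10.75 in fibroblasts. Mfap5 rose by 1.58 and Col3a1, a fibrillar collagen, fell by 1.84. Pdgfra was called lower at -1.25 but was at -0.50 with probe sets averaged. Of 14 cortical markers 5 were higher (35.7%, against 11.8% of all genes) and 4 lower (28.6%, against 7.81%), with Enpep at 1.74 and Prss16, the thymus-specific protease, at medians of 9.06 and 8.93 (-0.16), against a cTEC mean of 12.44. The part of these cells in the results was not tested.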

How the data were processed

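The table gives log2 signals per probe set, as the authors deposited them; per the series' design text the arrays were normalised in Gene Expression Commons, GCRMA is named per the submitters' processing notes, its version is not given in the sources used here, and the log base was read from the range of values (2.62 to 14.58). Such normalization pulls dim signals to a floor and equalises array medians. Of 45101 probe sets 34945 had 1 symbol, 932 had several and 9160 had none; 64 controls and those without 1 symbol were left out. The 18193 genes were each represented by the probe set with the highest mean over 36 arrays. Genes above the pooled median of 5.66 in at least 2 arrays were tested (14495).

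With 1 mean per group (18 groups), the 36 arrays were modelled in limma 3.58.1 (R 4.3.3; lmFit, eBayes with an intensity trend, 18 residual degrees of freedom). The test was two-sided with Benjamini-Hochberg adjustment over all genes tested; calls needed an adjusted p under 0.05 and, except for changes with age, 2-fold. The fit was tested on simulated data. The 41 gene lists hold 969 genes, 908 with a probe set, and are given by counts and medians. The members and lists were chosen with earlier results of these data known.

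Named were the 15 largest differences each way without overlap, up to 5 called members each way and 3 uncalled members of each list, all regulators, the 4 markers, and the 5 largest changes with age each way. Kif2c, Ube2c, Irgm1 and Stat2 were named for their promoter motif, and Cdkn1b, Cdkn2c and Cdkn2d after their values were seen. Alternatives were other filters and probe set rules, other scalings, a fit of 12 arrays, covariates, a replicate block and leaving out each array.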

Additional observations from a re-analysis of the deposited data

Results flagged for a closer look

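In 108 groups of 6 arrays, of the genes with the largest differences, the regulators and the markers, 8 held 1 array far from the other 5 by Dixon's criterion. Chance gives about 1 in 20 for 6 like arrays, but each group mixed 3 ages, so that rate is not a fair reference. Of the 8 arrays, 5 were mTEChi replicate 2 at 6 months, where Ch25h was at 4.96, Cxcl3 at 7.23, Ehf at 8.79, Hipk2 at 8.33 and Tnfrsf11a at 9.06. The other 3 were mTEClo replicate 2 at 1 month, where Crh was at 6.31, Idi2 at 6.11 and Serpina7 at 6.31.

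Differences that changed with age by the test of the change itself are given next. From 1 to 3 months the signed difference went up for Adgb by 2.26, Crhbp by 2.19, Matn1 by 2.70 and Tafa2 by 2.41, and changed by -1.93 for Mcam, -2.51 for Mcoln3 and -3.39 for Prg4. From 1 to 6 months it went up for Ang4 by 3.91, Calcb by 3.94, Cdc20 by 3.29, Hbb-y by 5.76 and Tff3 by 3.19. It changed by -3.51 for Boll, -5.61 for Cryl1, -3.47 for Ociad2, -4.35 for Ptprk and -3.83 for Sema3f. Of the 7 probe sets of Ptprk, 6 had the opposite sign to the one used in the difference over all ages. Their change with age was not computed.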

How the results depend on the processing

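The 2845 calls between the fractions stayed between 2329 and 2961 under every other setting tried except the mean of 3 and 6 months, which gave 3125, and none of the 252 named differences reversed a call; 38 of them lost a call under at least 1 alternative and 3 gained one. Age results depended more on the processing. The F-test count of 514 was 150 with the 12 medullary arrays only and 251 with the 3′ minus 5′ covariate, and 160 to 1704 when an array was left out. The count from 1 to 3 months, 15, was 27 without the filter, 26 with that covariate, and 3 to 81 when an array was left out; limma with the 12 arrays only gave 0, with 821 genes at an unadjusted p under 0.05. The count from 1 to 6 months, 951, was 586 with quantile normalization (338 up, 248 down), 408 with the 12 arrays only, 511 with the covariate, and 311 to 2259 when an array was left out, where the lone array is taken to vary like the other groups; with equal medians it split into 603 and 242. Of 17 named age changes 9 lost their call somewhere. Deviations of same-numbered mTEChi and mTEClo arrays correlated at 0.094, 0.27 and 0.16 at 1, 3 and 6 months. With 2 arrays per population and age, these values cannot decide whether replicate numbers pair the samples. With the replicate block 2847 genes were called between the fractions, 672 in the F-test and 1158 from 1 to 6 months. The cause of these shifts was not tested, and signals near the array medians limit what can be read of dim genes.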

Other observations

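Among tested genes, those called higher had a next gene called higher more often than the share of all genes. Neighbours here are tested genes only, so dim genes between them were skipped. A gene could enter the test through its mTEChi arrays alone, and these counts were not repeated without that filter. Of 1701 genes called higher with a next tested gene on the chromosome, 393 had that neighbour also called higher (23.1%, against 11.8% of genes). For genes called lower it was 155 of 1127 (13.8%, against 7.8%). There were 14 runs of at least 5 adjacent tested genes called higher and 1 run called lower. The longest held 10 genes of the skin barrier, 9 of them late cornified envelope (Lce) genes and the other Kprp, with a median difference of 2.40, and 8 kallikrein genes had a median of 2.42. A run of 6 from Ugt2b34 to Csn1s2a, which holds milk genes, had a median of 2.75. Others held serpins, keratins, defensins and aldo-keto reductases. The 1 run that fell was of 9 protocadherin beta genes, with differences from -3.53 to -1.19 and a median of -2.10. Such families are near-identical in sequence, so probe sets can read more than 1 member and neighbours are not independent; the part of this was not tested.

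The TATA element TATAAA stood, on either strand, in the promoter windows of 18.6% of genes called higher, 11.6% of those called lower and 9.05% of those not called. The AP-1 element TGANTCA stood in 11.8%, 7.71% and 6.25%. These shares are a description of letters near RefSeq starts.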
